A study of Rattus norvegicus with 25 samples.

Results

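The small RNAs (smRNAs) of sperm from saline-treated male rats were described without a contrast to any other group. The group, F0_SAL, holds 7 of the 25 sperm libraries of the series, chosen by their label alone: Sprague–Dawley males that lever-pressed for intravenous saline (0.9%) in a 3-h session each day for 60 days and were not abstinent before sperm collection. The other 18 libraries (7 F0_MOR from males that self-administered morphine, and 5 F0_ABS-SAL and 6 F0_ABS-MOR from males that went through 90 days of abstinence after saline or morphine) were not compared here. All males, the saline ones included, had undergone jugular catheter surgery under anaesthesia, and neither the labels nor the methods state their age at collection. Mature sperm came from the cauda epididymis by a double swim-up assay, and each library is labelled a biological replicate. Libraries are named here by the letter of their column (C, F, H, O, P, V and W), and these columns, marked REG, were matched to the nonabstinent saline group by its size of 7, since the labels do not expand REG.

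miRNAs are short RNAs cut from the 2 arms of a hairpin precursor, named 5p and 3p after the arm. Usually one arm is kept and loaded into an Argonaute protein, where the seed, bases 2 to 8 from the 5′ end, pairs with target mRNAs. miRNAs with the same seed form a family and can recognise the same target sites. Mature sperm transcribe little or nothing, and their RNA comes from spermatogenesis and from vesicles taken up in the epididymis. The miR-34/miR-449 family is known for its high expression in late spermatogenesis and in ciliated cells.

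The mature sequences of the miRNAs that carried most counts are shown here by shared seed, with the seed in capitals, because these few sequences define the composition described below. They were taken from RefSeq (table for GRCr8), which gave a sequence for 519 of the 562 listed miRNAs, together 97.0% of the miRNA counts.
miR-34c-5p: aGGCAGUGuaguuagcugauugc
miR-34b-5p: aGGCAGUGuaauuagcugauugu
miR-449a-5p: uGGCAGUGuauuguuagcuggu
miR-34a-5p: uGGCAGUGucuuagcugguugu
miR-7a-5p: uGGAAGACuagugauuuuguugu
miR-7b: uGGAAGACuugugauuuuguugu
let-7g-5p: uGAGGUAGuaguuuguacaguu
let-7f-5p: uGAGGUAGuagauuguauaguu
let-7i-5p: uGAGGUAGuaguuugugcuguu
let-7a-5p: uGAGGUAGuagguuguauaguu
miR-34b-3p: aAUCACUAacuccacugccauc
miR-34c-3p: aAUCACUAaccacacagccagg
miR-21-5p: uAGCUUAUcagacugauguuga
miR-148a-3p: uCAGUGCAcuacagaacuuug

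miRNA names are given without the rat prefix rno. Shares below are the percent of a library's miRNA counts, given as mean ± SD over the 7 libraries. miRNA counts per library ranged from 1157748 to 3203211, with a median of 1701012, and counts on Ensembl noncoding RNAs (ncRNAs) from 2338578 to 6489784, both highest in library O. Where no read was seen, a count of 0 allows a share of up to 9.37e-05% to 0.000259% of the miRNA counts (3 counts of the library's total, counting error only). The smallest count above 0 was 2, so a 0 can also stand for 1 read, which this limit does not cover. The libraries differed from each other far beyond sampling noise (in each of 21 pairs the chi-square exceeded its degrees of freedom by a factor of 39.1 or more over miRNAs and 21.5 or more over ncRNAs), so none was deposited under 2 letters. Even so, the order of 238 miRNAs was alike, with a Spearman correlation of 0.948 to 0.982 across miRNAs in the 21 pairs of libraries, a description in which each point is a miRNA and not a replicate.

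miR-34c-5p was the most abundant miRNA in every saline library and alone held 43.3% ± 6.86 of the miRNA counts. Its share was 35.2% in C, 45.4% in F, 40.2% in H, 53.6% in O, 35.0% in P, 47.7% in V and 46.1% in W, so that it made up more than 1 in 3 counts in each library and more than every other miRNA together in O. miR-7a-5p, known from neuroendocrine tissue and brain, was the second in all 7 libraries, with 16.1% ± 3.82 overall. It held 19.1% in C, 14.6% in F, 10.9% in H, 11.1% in O, 18.9% in P, 18.8% in V and 19.1% in W. Libraries H and O were thus the low ones for miR-7a-5p, while C and P were low for miR-34c-5p. These 2 miRNAs together took 59.4% ± 6.30 of the counts, from 51.1% in H to 66.6% in V.

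Below them, 18 further miRNAs lay between 0.896% and 2.53% in the mean. miR-21-5p, found in most tissues, had a lowest share of 2.36%, a median of 2.56% and a highest of 2.72%, the smallest spread relative to its mean among these 20 miRNAs. miR-148a-3p, which targets the DNA methyltransferase Dnmt1, ranged from 1.71% through a median of 2.35% to 3.20%. let-7g-5p and let-7f-5p, of the family that restrains growth-promoting genes such as Lin28 and Hmga2, had means of 2.33% ± 0.578 and 1.77% ± 0.455. Between them stood miR-34b-3p, from the hairpin next to miR-34c, with 1.55% at lowest, 2.20% at the median and 2.42% at highest. The next were miR-99a-5p (1.47% ± 0.635), miR-26a-5p (1.37% ± 0.337), miR-143-3p (1.31% ± 0.184), miR-191a-5p (1.28% ± 0.249) and miR-30c-5p (1.26% ± 0.259). miR-741-3p, from a miRNA cluster on the X chromosome that is expressed in testis, held 1.11% ± 0.310, and miR-140-3p, best known from cartilage, 1.10% ± 0.136. The list of 20 was closed by let-7i-5p (1.02% ± 0.406), miR-449a-5p (0.954% ± 0.20), miR-101b-3p (0.951% ± 0.0912), miR-10b-5p (0.934% ± 0.284), miR-10a-5p (0.905% ± 0.269) and miR-25-3p (0.896% ± 0.441). Each of these 20 was among the first 30 in all 7 libraries.

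**Figure D1:**
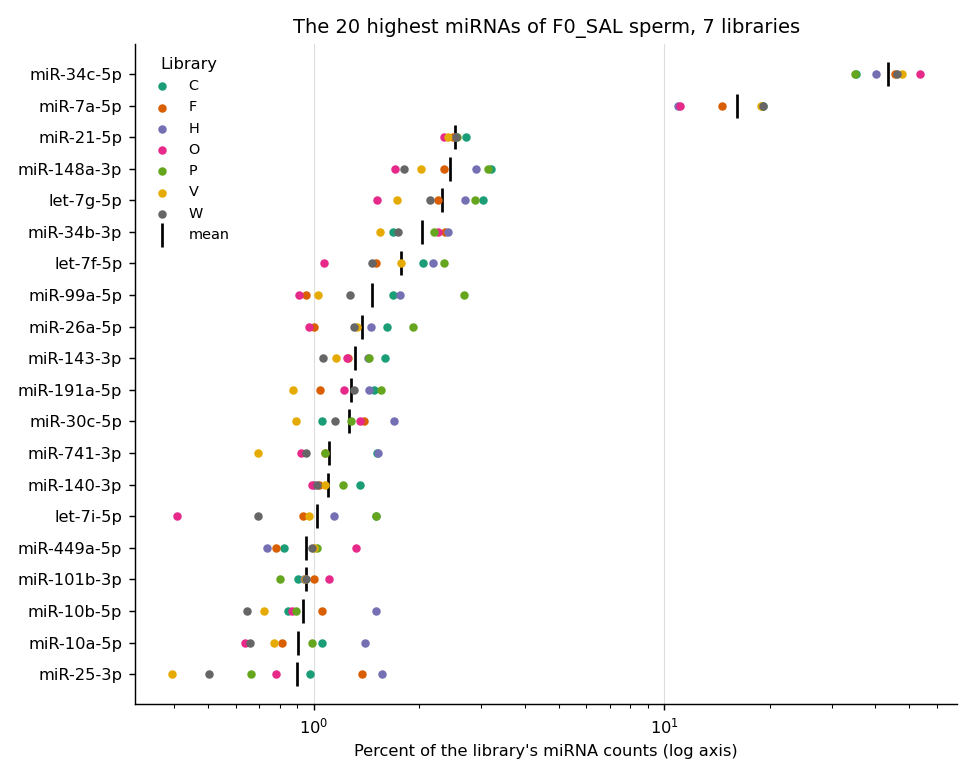
Percent of the library's miRNA counts (log axis) for the 20 miRNAs with the highest mean share, with 1 point per F0_SAL library and a black bar at the mean of 7. miR-34c-5p and miR-7a-5p stand to the right of all others in every library, and the points of the other 18 overlap their neighbours.

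Whether neighbours in this order differed was tested within libraries, on the log2 ratio of the counts of both miRNAs, with a two-sided exact permutation test that flips the sign of each library's ratio. The order was set by the same shares, so the tests describe how far the order holds across libraries. miR-34c-5p exceeded miR-7a-5p by 1.45 ± 0.513 (log2, SD, n = 7) and miR-7a-5p exceeded miR-21-5p by 2.63 ± 0.349, each in 7 of 7 libraries with an exact p = 0.0156, the smallest that 7 libraries allow. After Benjamini-Hochberg adjustment over 19 neighbouring pairs this became 0.148, so 0 of 19 pairs passed the threshold of 0.05, which the smallest p could pass only if at least 6 pairs reached it. Without adjustment 3 of 19 pairs had p under 0.05, the third being let-7f-5p over miR-99a-5p (higher in 6 of 7 libraries, log2 ratio 0.33 ± 0.320, exact p = 0.0313, adjusted p = 0.198). For the other 16 pairs the adjusted p was 0.891 or more, so the order of neighbours from miR-21-5p to miR-25-3p was not settled by 7 libraries. miRNAs farther apart in the order were not tested. The lowest share of miR-21-5p, 2.36%, was above the highest share of miR-25-3p, 1.57%.

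The composition was steep. The 10 highest miRNAs of each library held 75.0% ± 3.93 of its counts and the 20 highest 85.3% ± 2.23. Between 24 and 33 miRNAs were needed to reach 90 percent of the counts, and 93 to 112 to reach 99 percent. The effective number of miRNAs, the exponential of the Shannon entropy of the shares, was 14.3 ± 3.56, lowest in O (10.6) and V (10.7) and highest in H (18.7). Of the 562 miRNAs listed, 301 were detected in all 7 libraries and held 99.98% of the counts, 169 in 1 to 6 of them, and 92 were at 0 in all 7. A single library had 363 to 382 detected miRNAs, or 347 to 380 after each was thinned to the smallest total of 1157748 counts. No count of 1 was present, so a miRNA seen in a single read stands at 0.

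Grouped by shared seed, the 10 highest families held 81.2% ± 3.18 of the counts, and 3 of them stood apart. The seed GGCAGUG of the miR-34/miR-449 family took 44.4% ± 7.02, of which miR-34c-5p was 97.5%. Its other members were at 0.954% for miR-449a-5p, 0.145% ± 0.0354 for miR-34b-5p and 0.00125% ± 0.000504 for miR-34a-5p, a member induced by p53 in many somatic cells, while miR-449c-5p was at 0 in all 7 libraries. The seed GGAAGAC of miR-7a-5p and miR-7b took 16.4% ± 3.90, with miR-7b, 1 base apart from miR-7a-5p, at 0.325% ± 0.0828. The seed GAGGUAG of let-7 and miR-98-5p was spread over 9 members and took 6.24% ± 1.80, from 3.62% in O to 8.20% in P. Within it, let-7a-5p held 0.770% ± 0.298 and let-7c-5p 0.266% ± 0.148, and let-7e-5p was the lowest at 0.00751% ± 0.00254.

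Each of these 3 families was higher than the next in 7 of 7 libraries (exact permutation test on within-library log2 ratios, adjusted p = 0.0469 over 9 neighbouring pairs, a test added after the data had been seen). The order was set by the same shares. Each exact p was 0.0156, the smallest that 7 libraries allow, so passing the threshold depended on the number of pairs tested. For miR-34c-5p over miR-7a-5p the same exact p became 0.148 over 19 pairs. miR-34/miR-449 exceeded miR-7 by 1.46 ± 0.512 on the log2 scale, miR-7 exceeded let-7 by 1.41 ± 0.488, and let-7 exceeded the miR-148/152 family (seed CAGUGCA, 2.91% ± 0.687) by 1.08 ± 0.159. The next families did not separate: miR-21 at 2.53% ± 0.116, the 3p seed AUCACUA of miR-34b and miR-34c at 2.23% ± 0.409, miR-30 (seed GUAAACA) at 2.14% ± 0.253, miR-26 at 1.51% ± 0.357, miR-99a-5p at 1.47% and miR-143-3p at 1.31% gave an adjusted p of 0.0703 or more for every neighbouring pair. miR-99a-5p stands here alone, not grouped by seed. Families formed by name and arm instead put miR-30 at 2.82% ± 0.374, with miR-30d-5p (0.688% ± 0.141) added, miR-99 at 1.55% ± 0.649 and miR-10, with miR-10a-5p and miR-10b-5p together, at 1.84% ± 0.526, above miR-26 in the mean. By seed miR-10a-5p and miR-10b-5p fall into separate families, ACCCUGU and CCUGUAG in the reference sequences. Members 1 or 2 bases apart, such as miR-7a-5p and miR-7b, let-7f-5p and let-7a-5p, or miR-34c-5p and miR-34b-5p, could trade reads where the counting allowed a mismatch, which makes the shares of the lower member of each pair uncertain.

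Sequence features followed the leading miRNAs, and the values here are percent of the counts on miRNAs with a sequence. Mature sequences that start with A were 29.1% of the 519 sequences but held 49.6% ± 6.39 of the counts, and those that start with U were 40.1% of the sequences and held 44.8% ± 5.98. With miR-34c-5p left out, which starts with A, U-starting miRNAs held 80.8% ± 3.24 and A-starting ones 9.11% ± 1.28. Sequences of 23 bases, among them miR-34c-5p and miR-7a-5p, were 16.6% of the sequences and took 67.0% ± 5.31 of the counts, against 49.7% and 25.9% ± 4.21 for those of 22 bases. Lengths are those of the reference sequences, not of the reads.

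The dominant arm was clear for most hairpins. Both arms were listed for 215 of 283 hairpin names, and 157 had at least 10 counts over both arms in each of the 7 libraries and were tested (exact sign-flip test of log2((5p count + 1)/(3p count + 1)) within libraries, called at a Benjamini-Hochberg adjusted p under 0.05 over the 157). The 5p arm was higher in 80 hairpins, 51% of those tested, and the 3p arm in 66, or 42%, and 11 were not called. For 143 hairpins the same arm was higher in all 7 libraries. One arm exceeded the other more than 10-fold in 118 hairpins (69 with 5p and 49 with 3p), and the median absolute log2 ratio was 5.38. It was 5.07 when the arm at 0 in all 7 libraries, present in 24 hairpins, was set to 3 counts per library. By counts rather than by hairpins the 5p arms weighed more, with 83.3% ± 2.93 of the miRNA counts, or 70.5% ± 3.98 with miR-34c-5p left out.

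The miR-34b and miR-34c hairpins, whose genes neighbour each other within 10 kb on 1 strand in RefSeq, kept opposite arms. In miR-34c, 99.5% ± 0.130 of the counts were 5p (log2 ratio 7.78 ± 0.410, range 7.20 to 8.40), and in miR-34b 93.3% ± 1.43 were 3p (log2 ratio -3.82 ± 0.347, range -4.35 to -3.45). Each direction held in 7 of 7 libraries (adjusted p = 0.0172, exact sign-flip test), and the 2 hairpins' ranges did not come near each other. As the sequences above show, the 5p arms of both hairpins share the GGCAGUG seed and differ at 2 bases, and their 3p arms share AUCACUA, so that each hairpin mainly supplied a different seed. Together both hairpins took 45.7% ± 6.93 of the miRNA counts, with miR-34c 19.97-fold above miR-34b.

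Other hairpins among the highest were as one-sided. miR-7a had 99.99% of its counts on 5p, and miR-449a 99.6% ± 0.0875. miR-148a had 99.6% on 3p, miR-140 98.9%, miR-143 99.9%, miR-25 99.97% and miR-741 over 99.98% in every library. For let-7g, miR-26a and miR-101b the minor arm was at 0 in all 7 libraries. Set against a floor of 3 counts in a library, the lowest count of the 5p arm of let-7g was 11224-fold higher. The lowest count was 5677-fold higher for the 5p arm of miR-26a and 3488-fold higher for the 3p arm of miR-101b. This floor covers counting error only, not reads dropped by the minimum read number of 2.

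A few abundant hairpins gave both arms. miR-743b, of the testis X-linked cluster and 1.07% ± 0.213 of the counts, had 51.4% ± 8.75 on 5p, with a lowest library at 35.6%, a median of 52.7% and a highest at 60.2%, and the 5p arm was higher in 5 of 7 libraries (log2 ratio 0.08 ± 0.515, adjusted p = 0.739). Its close relative miR-743a was near equal too, with 45.8% ± 6.47 on 5p (log2 ratio -0.25 ± 0.382, adjusted p = 0.146). The smallest absolute log2 ratios of all tested hairpins were those of miR-144 (-0.04 ± 0.253), miR-298 (-0.07 ± 0.537), miR-743b, miR-181c (0.21 ± 0.995) and miR-339 (0.24 ± 0.617), and for none of these did the arms separate (adjusted p of 0.433 or more). miR-144 had a mean of 191 counts on 5p and 192 on 3p, while miR-181c rested on 21.1 and 15.3 counts.

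**Figure D2:**
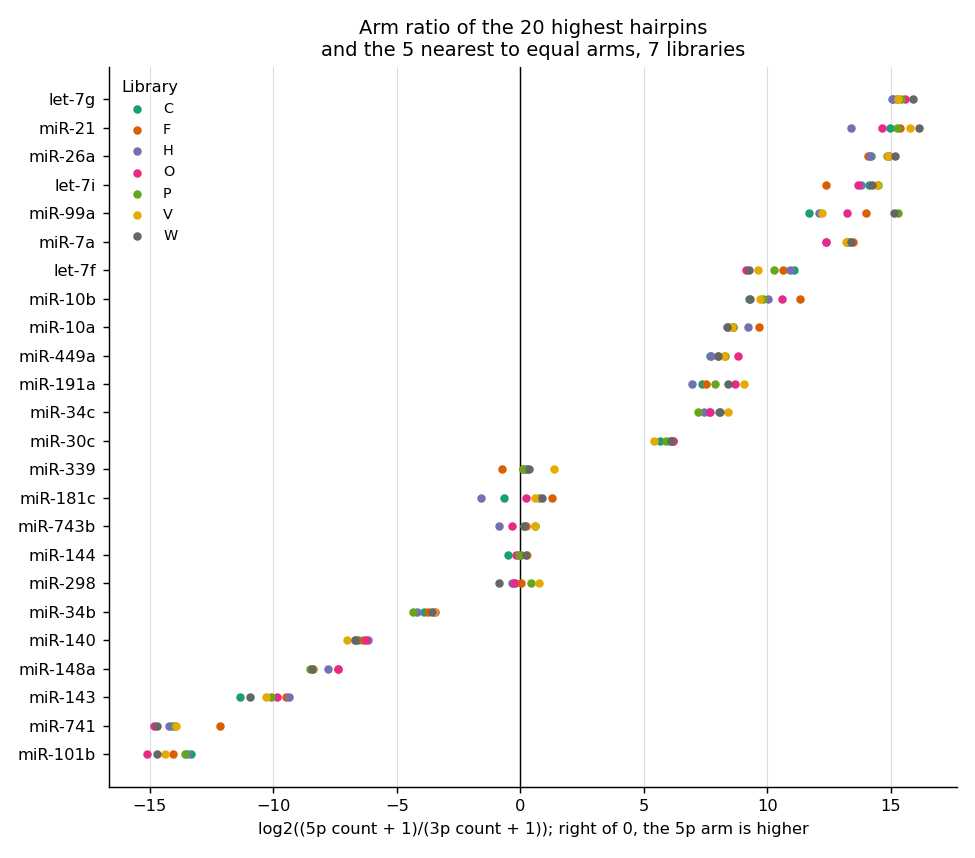
log2 ratio of the 5p to the 3p count, with 1 added to each, in each of the 7 F0_SAL libraries (1 point per library), for the 20 hairpins with the highest counts and the 5 with the smallest absolute ratio (miR-743b is in both sets). miR-34c lies between 7.20 and 8.40 and miR-34b between -4.35 and -3.45, and where an arm is at 0 the position is set by the added 1.

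Within the miR-30 family the arms were used unequally. miR-30c had 98.4% ± 0.337 of its counts on 5p, miR-30a 88.0% ± 6.17 and miR-30e 67.3% ± 16.5. For miR-30e the 5p percent was 72.0 in C, 46.5 in F, 45.1 in H, 61.9 in O, 78.1 in P, 84.1 in V and 83.4 in W, so the 3p arm was the higher one in F and H (log2 ratio 1.16 ± 1.12, adjusted p = 0.0663). Both arms moved in F and H. The 5p product was lowest there, at 0.242% of the miRNA counts in each, against a median of 0.309% and a highest of 0.340%. miR-30e-3p varied more and was highest there, at 0.0608% in V, 0.278% in F and 0.295% in H. The same libraries F and H had the lowest 5p percent in miR-30a, at 82.2 and 78.0, where 5p was nonetheless higher in all 7 libraries.

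The first base also differed between arms. Among the 113 called hairpins with both sequences, the higher arm started with U in 67 and the lower arm in 29, while A opened 26 higher and 39 lower arms, C 16 and 31, and G 4 and 14. The excess of U was present where 5p was higher (42 of 63 higher arms against 14 of 63 lower arms) and where 3p was higher (25 of 50 against 15 of 50). These counts are a description over hairpins, some of which are paralogs of each other.

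Hairpins whose genes lie side by side did not have equal counts. Of the counts, 56.8% fell on miRNAs that lie within 10 kb of another hairpin gene on the same strand. Most of this was the pair of miR-34b and miR-34c, with 45.7% of the counts. The cluster of 10 genes around Mir741, on the X chromosome, took 2.27% ± 0.591, and its hairpins ran from 1.11% for miR-741 and 0.436% ± 0.165 for miR-881 to 0.00936% ± 0.00317 for miR-880, 119-fold lower than miR-741. miR-3551, of the same cluster, was lower still, with 0 in at least 1 library and at most 0.000345%. In a second X-linked group, miR-743b was 38.7-fold above miR-883 and 199-fold above miR-742. miR-143 (1.31%) was 72.4-fold above miR-145 (0.0181% ± 0.00329), miR-191a was 6.59-fold above miR-425, and miR-25 was 4.85-fold above miR-93. For 23 mature miRNAs, with 20.7% of the counts, the sequence comes from more than 1 place in the genome, and these could not be given to a single gene.

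Lists of miRNAs known from cell types and pathways were summed to show what else the sperm preparations held. The male germ line list (miR-34b, miR-34c and miR-449 arms) summed to 46.7% ± 7.05, from 38.0% in C to 57.7% in O, and 6 of its 7 members were present in every library. The testis X-linked cluster list summed to 3.49% ± 0.775, with a lowest library at 2.38%, a median of 3.50% and a highest at 4.55%, and 22 of the 25 listed members were present in all 7 libraries (miR-880-5p was at 0). let-7 arms in all summed to 6.30% ± 1.82, and the miR-17-92 cluster with its paralogs, led by miR-25-3p and miR-20a-5p (0.562% ± 0.135), to 2.24% ± 0.665.

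The summed markers of other cells were low but not absent, with the exception of 1 smooth muscle marker that was high, and some members were at 0. The epithelial miR-200 family, which the lining of the epididymis also expresses, summed to 0.702% ± 0.183 (7 of 9 members in all libraries, miR-200c-5p at 0), led by miR-200b-3p (0.299% ± 0.0925) and miR-200a-3p (0.202% ± 0.0430). The smooth muscle and fibroblast list summed to 1.33% ± 0.187, of which miR-143-3p alone was 1.31%, while its usual partner miR-145 had 0.0125% ± 0.00364 for 3p and 0.00563% for 5p. The leukocyte list summed to 0.149% ± 0.0457, with miR-146a-5p at 0.0660%, miR-142-5p at 0.0579% and miR-155-3p at 0. The erythroid list, led by miR-451-5p (0.0891% ± 0.0446), summed to 0.110% ± 0.0474, with 0.211% in V against 0.117% or less in the others. The neural list, which does not include miR-7a-5p, summed to 0.199% ± 0.0651 (miR-128-3p 0.128%, miR-9a-5p 0.0579%). The stratified epithelium list summed to 0.0785% ± 0.0185 (miR-203a-3p 0.0681%, miR-205 0.00558%).

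The endothelial marker miR-126a-3p was at 0.0539% ± 0.0115. The striated muscle list summed to 0.0437% ± 0.0131, led by miR-499-5p (0.0270% ± 0.00765) and miR-1b (0.0153% ± 0.00750). Of its 8 listed members 4 were present in all 7 libraries, and miR-133a-5p and miR-208b-3p were at 0 in all. The liver marker miR-122-5p stood at 0.000705% ± 0.000829, with miR-122-3p at 0. In bulk samples the number of cells of a type and the amount of RNA per cell cannot be told apart, so these sums are no shares of cells, and the part of other cells in the shares was not tested. miRNAs of the imprinted Dlk1-Dio3 domain, expressed from the maternal allele in somatic tissue, summed to 0.0520% ± 0.0255, with 14 of 36 listed members present in all 7 libraries and 3 at 0 (miR-329-3p, miR-377-3p and miR-665). The 9 miRNAs that earlier mouse work tied to paternal stress summed to 3.37% ± 0.935, led by miR-30c-5p and miR-25-3p.

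**Figure D3:**
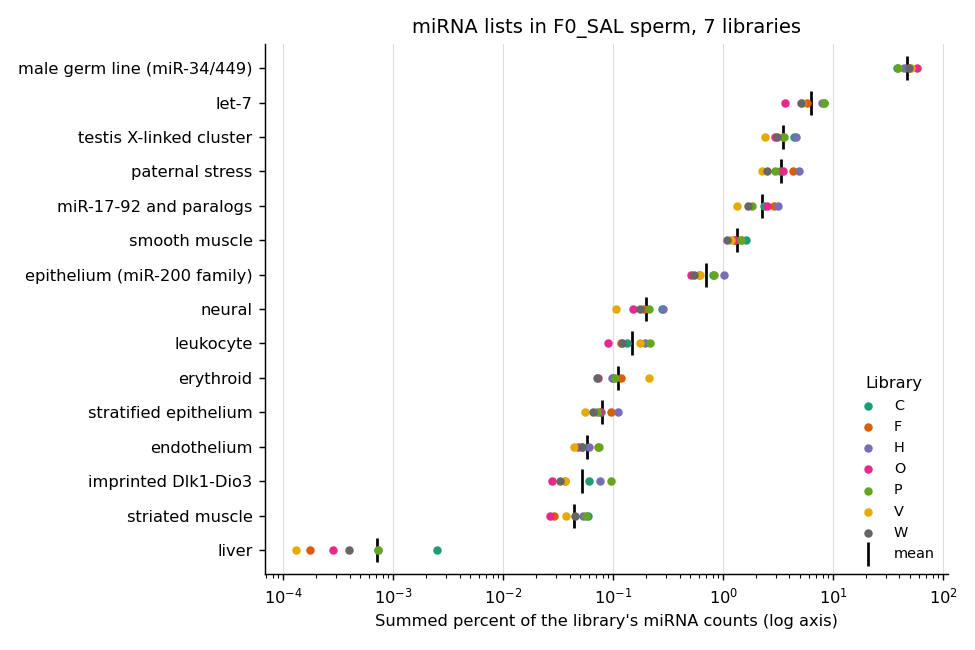
Summed percent of the library's miRNA counts (log axis) for 15 lists of miRNAs, with 1 point per F0_SAL library and a black bar at the mean of 7. The germ line list lies at 38.0% to 57.7%, the cell type lists other than smooth muscle and the miR-200 family stay below 0.3%, and V stands to the right in the erythroid list and C in the liver list.

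The spread between the saline libraries was several times larger than counting error. Over the 167 miRNAs with at least 100 counts in the mean library, the median coefficient of variation (CV) of the share was 27.2% (quartiles 20.3% and 38.3%), with a median of 3.69% from counting alone and 26.4% beyond counting. For 38 miRNAs the CV was under 20 percent and for 17 it was over 50 percent. miR-21-5p had the lowest CV at 4.59%, followed by miR-101b-3p (9.60%), miR-22-3p (9.89%), miR-471-5p (9.91%) and miR-1843a-5p (10.3%). The highest were miR-199a-3p (76.7%), miR-199a-5p (75.4%), miR-125a-5p (68.9%), miR-150-5p (67.6%) and miR-127-3p (67.3%).

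The 5 most variable miRNAs were high in the same 2 libraries. miR-199a-3p, a miRNA of mesenchymal cells, was 0.0643% in C, 0.0491% in F, 0.184% in H, 0.0413% in O, 0.245% in P, 0.0840% in V and 0.0546% in W. Its 5p partner was 0.0199% in H and 0.0261% in P against 0.0107% or less elsewhere. The leukocyte miRNA miR-150-5p was 0.0252% in H and 0.0161% in P against 0.00855% or less in the others, and miR-125a-5p was 0.0375% and 0.0263% against 0.0183% or less. miR-127-3p, of the Dlk1-Dio3 domain, was 0.0272% and 0.0300%, with C next at 0.0192%. The summed leukocyte list was 0.193% in H and 0.216% in P, with V next at 0.173% and the others at 0.134% or less. Its members did not all follow. miR-146a-5p was 0.0968% in H and 0.0980% in P, while miR-142-5p was 0.0528% in H, 0.0874% in P and 0.0526% in C. miR-142-3p was highest in F, at 0.0155%, against 0.0114% in H and 0.0105% in P. V was not high for miR-150-5p, at 0.00836%. The part of leukocytes in these values was not tested.

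Which miRNAs counted as stable depended on the scale. With counts scaled by TMM or by DESeq2 size factors, 0 of the 5 lowest and 2 of the 5 highest were shared with those by share, and miR-143-3p and miR-200a-3p were among the 5 lowest under both. The CV of miR-21-5p was 14.9% with TMM and 13.1% with DESeq2 factors, and that of miR-34c-5p was 15.8% by share, 31.9% with TMM and 30.4% with DESeq2 factors. miR-199a-3p and miR-199a-5p were among the 5 highest on all 3 scales.

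**Figure D4:**
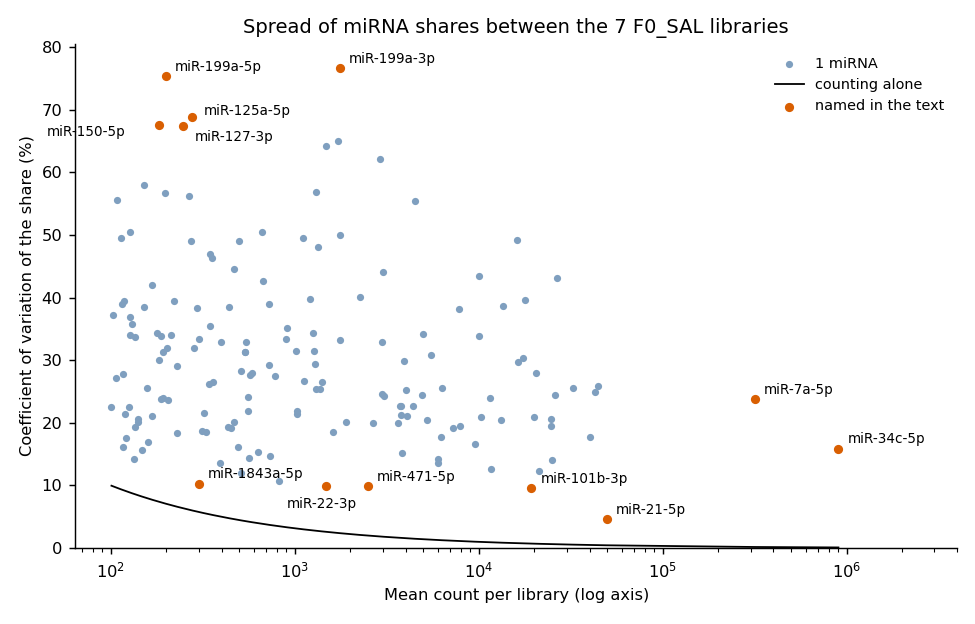
Coefficient of variation of the share over the 7 F0_SAL libraries against the mean count per library (log axis), 1 point per miRNA for 167 miRNAs, with the line that counting alone would give. The median is 27.2%, miR-21-5p lies lowest at 4.59% and miR-199a-3p highest at 76.7%, and every named miRNA lies above the line.

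The share of miR-34c-5p was set beside those of the other miRNAs. Of 166 others with at least 100 counts, 133 had a negative Pearson correlation with it over the 7 libraries (log2 shares) and 33 a positive one. The most alike were miR-742-5p (r = 0.92), miR-34b-5p (0.89), miR-101b-3p (0.88), miR-16-5p (0.79) and miR-883-3p (0.73), of which miR-742 and miR-883 lie in the X-linked group described above. miR-34b-5p, for instance, was 0.207% in O and 0.107% in P, the libraries in which miR-34c-5p was highest and lowest. miR-743b, the highest hairpin of that X-linked group, was not among the most alike. Its 5p arm was 0.414% in O and 0.609% in P, and its 3p arm 0.517% and 0.546%. Those farthest from miR-34c-5p were miR-27b-3p (-0.98) and let-7g-5p (-0.96). Each point is 1 library, the shares of a library add up to a fixed total, and the part of this in the signs was not tested.

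The share of miR-34c-5p was also set beside library size, with 4 relations examined in all, chosen after the data had been seen (two-sided exact permutation tests, n = 7, adjusted over 4). Against log2 of the miRNA counts, Pearson's r was 0.88 (exact p = 0.0133, adjusted p = 0.0532) and Spearman's rho 0.86 (exact p = 0.0238, adjusted p = 0.0952), with r = 0.80 without O and W. Against log2 of the miRNA counts other than miR-34c-5p, r was 0.77 (exact p = 0.0550, adjusted p = 0.0733) and rho 0.64 (exact p = 0.139, adjusted p = 0.139), with r = 0.60 without the same 2 libraries. Neither relation passed the adjusted threshold. The labels give no batch or sequencing date for these libraries, so no within-batch value could be formed.

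In the ncRNA matrix, reads not assigned to miRNAs were counted on 3804 Ensembl transcripts of 16 biotypes, and shares below are percent of a library's ncRNA counts. ncRNA counts were 1.79 ± 0.452 times the miRNA counts, with a range of 1.09 to 2.35. Of the transcripts, 1863 were detected in at least 1 saline library, 402 in all 7, and 1941 were at 0. Nuclear tRNAs and piRNAs, both known components of sperm and testis smRNA, are not among the 16 biotypes and were not analysed here. Many listed transcripts could not be told apart: 570 of the detected ones had the same counts in every library as at least 1 other, and 1439 distinct sets of counts were present, so shares are also given with such copies counted once.

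Mitochondrial rRNA (Mt_rRNA), the RNA of the ribosome inside mitochondria, of which the sperm midpiece holds many, was by far the largest biotype at 76.2% ± 6.43. It was 76.1% in C, 78.4% in F, 70.7% in H, 87.0% in O, 68.8% in P, 71.5% in V and 80.6% in W. Only 2 transcripts make up this biotype, and ENSRNOT00000069133.1 held 63.9% ± 5.92 against 12.2% ± 2.97 for ENSRNOT00000040038.3. Their ratio was 5.54 ± 1.59 and lay between 3.87 and 8.25 in single libraries. The mitochondrial tRNAs (Mt_tRNA), in contrast, had 2 to 11 counts in a library and 0.000173% ± 8.27e-05 of the total.

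The snRNAs of the spliceosome held 11.5% ± 3.45 (5.02% in O, 11.4% at the median, 15.2% in V), nuclear-encoded rRNA 6.04% ± 2.37 (3.18% to 9.90%) and misc_RNA, a mixed class, 5.99% ± 1.28 (4.62% to 8.42%). The other 12 biotypes together held 0.335%, from 0.185% to 0.435%. Among these were lincRNA with 0.207% ± 0.0732 over 892 detected transcripts, snoRNA, the guides of rRNA modification, with 0.0560% ± 0.0181, processed_transcript with 0.0412% ± 0.0192, and reads on miRNA hairpins left after the miRNA step with 0.0155% ± 0.00132. With Mt_rRNA left out of the total, snRNA was 47.6% ± 4.88, misc_RNA 26.2% ± 5.86 and rRNA 24.8% ± 3.94.

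Of 8 neighbouring pairs of biotypes, 5 were separated in 7 of 7 libraries (exact sign-flip test on within-library log2 ratios, adjusted p = 0.025). Mt_rRNA exceeded snRNA by 2.80 ± 0.655 on the log2 scale, snRNA exceeded rRNA by 0.95 ± 0.298, misc_RNA exceeded lincRNA by 4.91 ± 0.511, lincRNA exceeded snoRNA by 1.87 ± 0.407, and processed_transcript exceeded the miRNA biotype by 1.29 ± 0.615. rRNA and misc_RNA did not separate (adjusted p = 0.672), nor did snoRNA and processed_transcript or the miRNA biotype and pseudogene (both adjusted p = 0.125). With any 1 of C, F, O, P, V or W left out 0 pairs passed, and 6 passed without H, since 6 libraries allow no exact p below 0.0313. With copies counted once, Mt_rRNA was 84.0% ± 4.45, snRNA 5.13% ± 1.67, snoRNA 0.0261% ± 0.00822, misc_RNA 5.40% ± 1.25 and rRNA 5.16% ± 2.06. Second place was then shared by misc_RNA, rRNA and snRNA, whose neighbouring pairs had an adjusted p of 0.536 and 0.984 (exact sign-flip test), so the place of snRNA above rRNA held only with every copy counted.

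**Figure D5:**
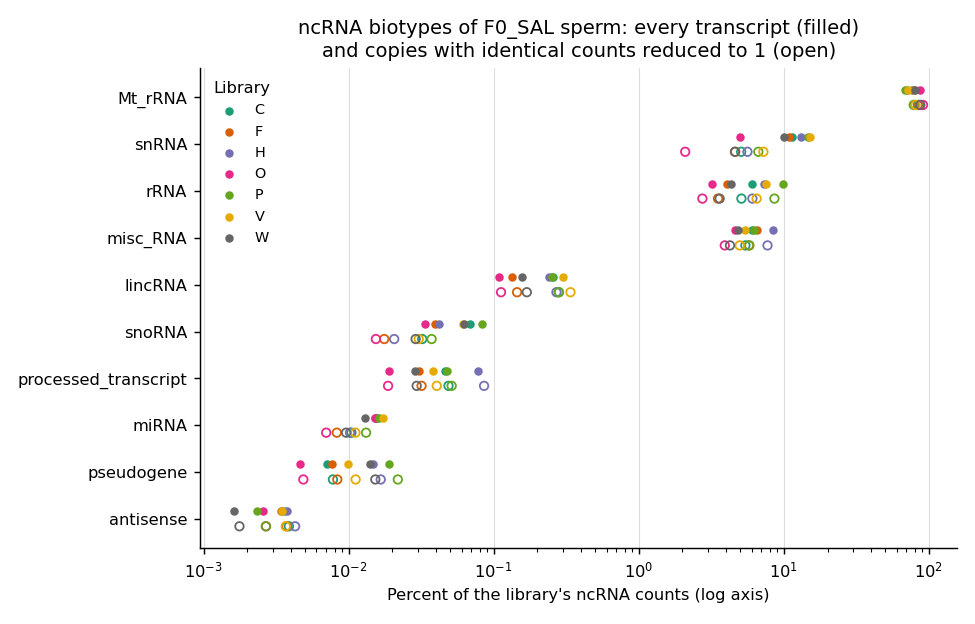
Percent of the library's ncRNA counts (log axis) for the 10 highest biotypes in the 7 F0_SAL libraries, filled with every transcript counted and open with transcripts of identical counts reduced to 1. Mt_rRNA lies at 68.8% to 87.0% and snRNA moves from 11.5% to 5.13% in the mean when copies are reduced.

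Below Mt_rRNA no single transcript dominated its library. The largest snRNA transcript, ENSRNOT00000077425.1, held 0.670% ± 0.199 and shared its counts with 10 other transcripts. ENSRNOT00000082705.1 led misc_RNA with 0.450% ± 0.131 and 1 other transcript of the same counts, and ENSRNOT00000072497.2 led rRNA with 0.243% ± 0.0763. The lincRNA ENSRNOT00000087930.1 held 0.0482% ± 0.0207, which was 22.7% of its biotype, and the snoRNA ENSRNOT00000079504.1 held 0.00446% ± 0.00153 and shared its counts with 5 others. The ncRNA files pair these identifiers with no gene symbols. The shares of ncRNA transcripts varied more between libraries than those of miRNAs did, with a median CV of 35.3% over 145 transcripts with at least 100 counts in the mean library, or 35.1% over 105 distinct sets of counts, against 27.2%, a difference that was not tested. Mt_rRNA, at 68.8% to 87.0% of the total, moves every other ncRNA share, and its part in this spread was not tested.

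The Mt_rRNA share was highest in O, the library with the most ncRNA counts. Against log2 of the ncRNA counts, r was 0.80 (exact p = 0.0268, adjusted p = 0.0536) and rho 0.75 (exact p = 0.0663, adjusted p = 0.117), and without O and P r was 0.15, so the relation rested on these 2 libraries. Between the Mt_rRNA share and the miR-34c-5p share r was 0.71 (exact p = 0.0784, adjusted p = 0.0784) and rho 0.71 (exact p = 0.0881, adjusted p = 0.117), and again r was 0.14 without O and P. The miRNA counts were 36.7% ± 6.46 of the miRNA and ncRNA counts together, from 29.9% to 47.8%.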

How the data were processed

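Sperm smRNA was isolated by the authors with TRIzol-LS, libraries were made with the NEBNext small RNA kit, and forward reads were used. The authors ran sRNAbench (mean Phred score of at least 20, read length of at least 15, minimum read number 2, alignment seed of 20 with 1 mismatch, genome rn6) and assigned reads first to miRBase v22 and then to Ensembl release 104 ncRNAs. Their settings also list RNAcentral and Ensembl cDNA libraries, whose place in the order of assignment is not stated. The deposited values are raw read counts, 1 table for mature miRNAs and 1 for ncRNA transcripts. The submitters' processing notes also name DESeq2. Some ncRNA transcripts have identical counts in all 25 libraries. No molecular identifiers are named, so intervals and floors cover counting error only.

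From these counts, shares per library, families by seed (bases 2 to 8), arm ratios (pseudocount 1, at least 10 counts), biotype sums and CVs were computed with Python 3.11.15, pandas 2.3.3 and scipy 1.17.1. TMM factors (edgeR 4.0.16) and DESeq2 1.42.0 size factors served only as alternative scales. Ranks were compared with two-sided exact sign-flip tests within libraries, adjusted by Benjamini-Hochberg. The arm test was tested on simulated data. The miRNAs named are the 20 highest, the 5 highest and 5 lowest in CV, the highest hairpins and those nearest to equal arms, the 10 highest families, the 2 highest members of each list and markers at 0. miR-30a, miR-30e, miR-743a and the members of neighbouring hairpins were chosen after their values were seen. Neighbouring genes came from RefSeq (GRCr8), a later build than rn6, so no coordinates are given. The members and lists were chosen with earlier results of these data known. Alternatives were another denominator, summed counts, equal depth, count minimums, pseudocounts, a shorter seed, copies reduced, the largest transcript left out, other scales and each library left out.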

Additional observations from a re-analysis of the deposited data

Results flagged for a closer look

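Of the summed levels and totals, 3 values stood far from the other libraries by Dixon's criterion for 7 samples, out of 75 quantities checked, of which chance alone would mark about 3.75. Library O had the most ncRNA counts (log2 total 22.63, next 21.76). The summed share of the erythroid miRNAs was 0.211% in V (next 0.117%). The summed share of the liver miRNAs was 0.00250% in C (next 0.000730%).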

How the results depend on the processing

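No paired analysis was possible because the columns carry no replicate numbers and no groups were contrasted. Of 79 recomputed values, 49 stayed within 1 SD over libraries (shares) or within 1.5-fold (counts and CVs) and 30 did not. As a share of miRNA and ncRNA counts together, miR-34c-5p was 15.97%, miR-7a-5p 6.06%, Mt_rRNA 48.2%, snRNA 7.22%, misc_RNA 3.83%, lincRNA 0.131% and snoRNA 0.0349%. With the largest transcript left out, Mt_rRNA was 34.6%, snRNA 31.3%, rRNA 16.3%, misc_RNA 16.9%, lincRNA 0.564% and snoRNA 0.154%. With identical copies reduced to 1, Mt_rRNA was 84.0%, snRNA 5.13% and snoRNA 0.0261%, and snRNA then stood below misc_RNA and rRNA. A minimum of 100 counts left 102 hairpins tested rather than 157, with 41 called for 3p. The miR-30 family was 2.82% by name and arm, an alternative chosen after seeing the data.

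Leaving out each library in turn moved 6 of 203 values. miR-34c-5p stayed between 41.6% and 44.7%, the 5p calls between 78 and 80 and the 3p calls between 65 and 67. The separated pairs of neighbouring biotypes ranged from 0 to 6, being 6 without H and 0 without C, F, O, P, V or W, since with 6 libraries the smallest p is 0.0313 and 5 pairs at that p reach an adjusted value of only 0.05. Depth limits detection to shares above 9.37e-05% to 0.000259% of the miRNA counts.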
